A study of Mus musculus with 8 samples.

Results

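The 9 genes described here encode proteins that the protease MALT1 cleaves, for Map3k14 as its fusion with API2, together with Zc3h12d, a paralogue of one of them. Members were taken by name (Tnfaip3, Cyld, Relb, Zc3h12a, Zc3h12d, Rc3h1, Rc3h2, Rbck1 and Map3k14), and every probe set that the platform annotation assigns to one of these symbols was used. This gave 21 of the 45037 probe sets tested, and 9 of the 18193 genes tested. Rc3h2 has 7 probe sets and Cyld 4, while 4 members have a single one. Sca1+Lin- bone marrow cells, which carry the stem cell antigen Sca1 and lack lineage antigens, were sorted from mice, and their amplified RNA was measured on Affymetrix arrays with 1 colour. The 5 Sca1-MALT1 arrays came from mice that carry a transgene which, by its name, joins the Sca1 promoter to MALT1, and 3 arrays came from wild-type (WT) mice. The labels name no treatment, age or strain, and do not say which species the transgene comes from or how many animals gave each sample. Values are log2 signals, and a difference is Sca1-MALT1 minus WT on that scale.

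MALT1 is both a scaffold and a protease. Downstream of antigen receptors it joins BCL10 in a complex that activates NF-kB, and it also cuts inhibitors of the same pathway after an arginine residue. Its substrates fall into enzymes that edit ubiquitin chains (A20, CYLD and HOIL-1), the alternative NF-kB subunit RelB, and RNA-binding proteins that destroy inflammatory transcripts (Regnase-1 and the Roquins). NIK, of the alternative NF-kB route, is listed as a substrate of the fusion of API2 with MALT1. Cleavage acts on the proteins, and the arrays measure the transcripts, so the values below say nothing of cleavage.

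Tnfaip3, Zc3h12d and Cyld are shown here by the sequence around their annotated gene starts, because Tnfaip3 and Zc3h12d had the largest differences of the 9 genes and Cyld is the second deubiquitinase gene. Each window runs from 250 bases before to 50 bases after the start and is read 5′ to 3′ on the strand of the gene, from RefSeq, build GRCm38.p6. The Tnfaip3 window is chr10:19015361-19015660 on the minus strand, the Zc3h12d window chr10:7832220-7832519 on the plus strand and the Cyld window chr8:88696778-88697077 on the plus strand. Capitals mark each match to GGNNNTTCC, one form of the site that NF-kB subunits bind, searched on both strands.
Tnfaip3: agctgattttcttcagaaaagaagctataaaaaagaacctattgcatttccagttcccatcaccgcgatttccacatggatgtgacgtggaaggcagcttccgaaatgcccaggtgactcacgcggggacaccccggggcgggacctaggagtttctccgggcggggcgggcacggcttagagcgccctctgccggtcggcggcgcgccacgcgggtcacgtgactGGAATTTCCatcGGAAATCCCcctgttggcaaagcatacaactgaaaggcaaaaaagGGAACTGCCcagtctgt
Zc3h12d: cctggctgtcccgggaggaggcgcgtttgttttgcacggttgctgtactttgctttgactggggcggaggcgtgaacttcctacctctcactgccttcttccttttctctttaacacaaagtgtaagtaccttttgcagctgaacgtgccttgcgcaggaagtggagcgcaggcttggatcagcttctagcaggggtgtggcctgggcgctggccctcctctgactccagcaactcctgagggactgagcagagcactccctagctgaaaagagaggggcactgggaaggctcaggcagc
Cyld: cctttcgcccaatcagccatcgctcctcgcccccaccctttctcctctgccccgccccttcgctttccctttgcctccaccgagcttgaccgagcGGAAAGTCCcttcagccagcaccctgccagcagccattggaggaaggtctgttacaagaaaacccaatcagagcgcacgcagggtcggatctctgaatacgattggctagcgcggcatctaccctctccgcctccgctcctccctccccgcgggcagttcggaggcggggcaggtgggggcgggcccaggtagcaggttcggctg
The Tnfaip3 window held 3 matches, which begin 24 and 12 bases before the start and 33 bases after its first base. The Cyld window held 1, which begins 155 bases before the start, and the Zc3h12d window held none of these letters. Of 32851 windows of this length in the RefSeq table, 18.5% held at least 1 match and 2.16% at least 2. The table had windows for 8 of the 9 genes (all but Relb), 10 windows in all, and 3 of the 10 held a match, the third being at a later Tnfaip3 start, chr10:19011914-19012213. A match is a run of letters and not a measured binding site.

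No member passed the test at an adjusted p of 0.05 in limma's fit, and Tnfaip3 and Zc3h12d stood apart from the others by size. Of the 9 genes 0 passed, where 0.0879% of all genes did, and of the 21 probe sets 0 passed, where 0.06% of all probe sets did. At an unadjusted p under 0.05 in limma's fit there were 3 of the 9 genes (Tnfaip3, Zc3h12d and Relb, all higher in Sca1-MALT1), against 10.2% of all genes, and 4 of the 21 probe sets, against 9.47% of all probe sets. The difference was positive in 7 genes and negative in 2, beside 50.7% positive of all genes. The median was 0.10, beside a median of 0.004 over all genes. Of the positive ones, Zc3h12a at 0.10, Rbck1 at 0.040 and Rc3h2 at 0.0015 changed sign under other processing. Without WT replicate 1, 6 genes were positive and 3 negative, beside 49.5% positive of all genes. With all 8 arrays and without regard to sign, the median was 0.27 for the members and 0.15 over all genes. Of the members 2 had a difference over 1, as did 3.22% of all genes. Since no label states that each array had its own animal, the p-values hold for the spread among these arrays, part of which may be technical.

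**Figure D1:**
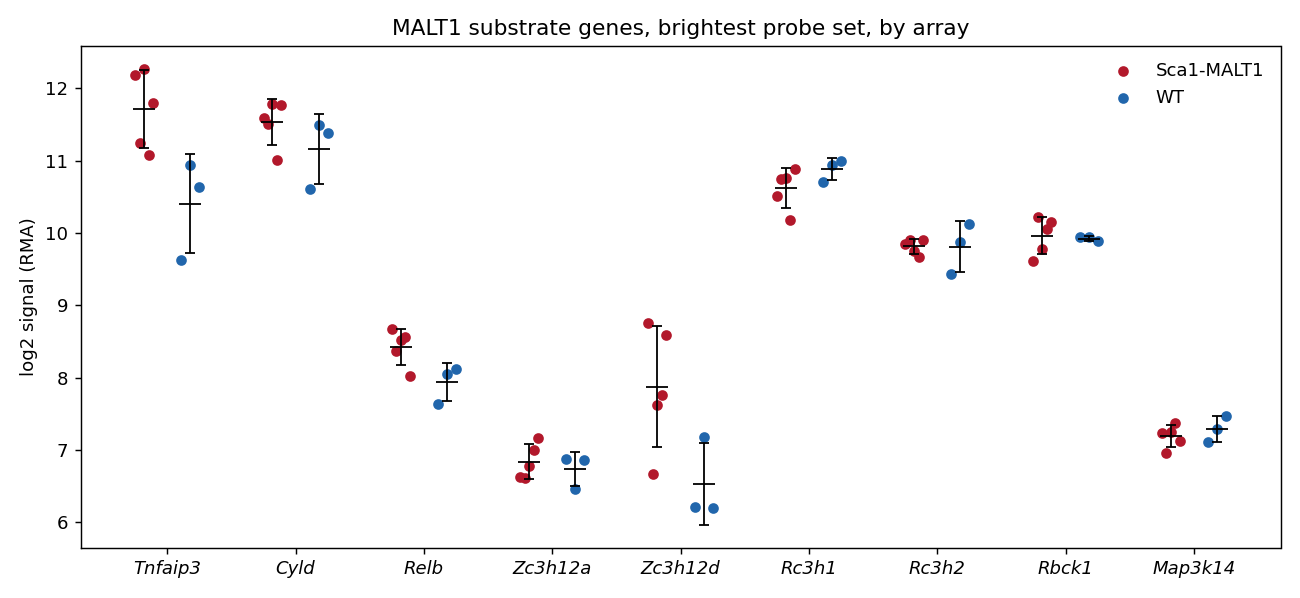
Log2 signal of the brightest probe set of each of the 9 genes, 1 point per array, with Sca1-MALT1 (5 arrays, red) left of WT (3 arrays, blue); bars are the mean and SD. Tnfaip3 is the gene whose groups do not overlap, and heights cannot be compared between genes.

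Beside stem and progenitor markers, the sorted fraction carried signal of marker genes of several mature blood lineages. All 9 measured stem and progenitor markers had a mean above the median probe set in both groups, and their mean signal was 8.34 to 10.21 in Sca1-MALT1 and 9.17 to 10.63 in WT arrays. The difference was negative in 7 of these 9 genes, with a median of -1.06 beside -1.03 for the B cell markers. The progenitor genes Cd34 at -2.15, Flt3 at -1.59 and Hlf at -1.33 had an unadjusted p under 0.05, and none passed after adjustment (limma adjusted p of 0.377 to 0.458). All 11 plasma cell markers had a positive difference, with a mean signal of 11.11 to 12.68 in Sca1-MALT1 and 9.38 to 9.60 in WT arrays, and Jchain passed the test. B cell markers read 7.72 to 9.42 in Sca1-MALT1 and 9.39 to 10.07 in WT, with a negative difference in all 8 measured genes, and T cell markers read 9.20 to 10.71 in Sca1-MALT1 and 9.33 to 9.61 in WT, with a positive difference in all 8 measured genes. Neutrophil markers spread from 10.09 to 13.60 in Sca1-MALT1, around the 11.86 to 12.56 of WT, and erythroid markers read 9.26 to 9.92 in Sca1-MALT1 and 8.51 to 8.80 in WT. In these bulk samples more cells of a type and more RNA per cell cannot be told apart.

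Of the 2 genes for deubiquitinases that restrain NF-kB, Tnfaip3 had no overlap between the genotypes, reading higher in Sca1-MALT1, and Cyld overlapped. Tnfaip3 encodes A20, which removes and adds ubiquitin on NF-kB signalling proteins and is itself an NF-kB target, so that it acts as a feedback inhibitor. Its brightest probe set, 1433699_at, read 12.19, 11.25, 12.27, 11.09 and 11.80 in the 5 Sca1-MALT1 arrays, against 9.63, 10.94 and 10.63 in the 3 WT arrays. Every Sca1-MALT1 array was above every WT array, and the narrowest gap was between Sca1-MALT1 replicate 4 and WT replicate 2. The groups of the brightest probe sets did not overlap in 1 of the 9 genes, higher in Sca1-MALT1, against 4.27% of all genes. The mean was 11.72 ± 0.54 (SD, n = 5) in Sca1-MALT1 and 10.40 ± 0.68 (n = 3) in WT, a log2 difference of 1.32 or 2.49-fold (SE 0.37, 95% interval 0.46 to 2.17, limma adjusted p = 0.318). The exact two-sided permutation test over the 56 splits of the arrays gave p = 0.0357 for this probe set, where the smallest p the design allows is 0.0179. It was the 1 member of 9 with an exact permutation p under 0.05, as 6.87% of all genes had, and it no longer did when WT replicate 1 or Sca1-MALT1 replicate 1 was left out. Without WT replicate 1, its lowest array, the difference was 0.93.

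The other Tnfaip3 probe set, 1450829_at, was dimmer than the median probe set and ran the same way. It read 6.19, 5.70, 5.94, 5.95 and 5.99 in Sca1-MALT1, against 5.53, 5.49 and 5.62 in WT arrays, again without overlap. Its difference was 0.41 (SE 0.12, limma adjusted p = 0.390 over all probe sets), and with the mean of both probe sets Tnfaip3 stood at 0.86. Both probe sets of Tnfaip3, and no other of the 21, had groups that did not overlap, and 3.68% of all probe sets were so in this direction. Plasma cell and erythroid markers moved with the genotype beside Tnfaip3, as did T cell markers except in Sca1-MALT1 replicate 4. Within Sca1-MALT1, 1433699_at was highest in replicate 3 and lowest in replicate 4, like the T cell marker mean (10.71 and 9.20). That mean was 9.33 to 9.61 in WT arrays. The dimmer 1450829_at was highest in replicate 1 and lowest in replicate 2, like the plasma cell marker mean (12.68 and 11.11). The part of these cell types in the Tnfaip3 difference was not tested.

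Cyld encodes CYLD, which strips ubiquitin chains from NF-kB signalling proteins. Its brightest probe set, 1429618_at, read 11.60, 11.51, 11.79, 11.01 and 11.77 in Sca1-MALT1, against 10.61, 11.50 and 11.38 in WT arrays. Sca1-MALT1 replicate 4 lay inside the WT range, and WT replicate 1 was the lowest of all 8 arrays. The difference was 0.37 (SE 0.25, 95% interval -0.20 to 0.95, limma adjusted p = 0.667), and it was 0.097 without WT replicate 1. Of its other 3 probe sets, 1429617_at differed by 0.44 and 1429201_at by 0.29, while the dim 1445213_at stood at -0.040, with limma adjusted p-values of 0.543 to 0.968 over all probe sets.

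Tnfaip3 was set against Cyld within each array, as 1 of 3 pairs of members compared in this way. Tnfaip3 minus Cyld was 0.59, -0.26, 0.48, 0.079 and 0.029 in the Sca1-MALT1 arrays, against -0.98, -0.56 and -0.74 in the WT arrays. All 5 Sca1-MALT1 values were above all WT values, so the gap between the 2 genes shifted toward Tnfaip3 in these samples by 0.94. Tnfaip3 alone already had no overlap, at a difference of 1.32, while Cyld differed by 0.37, so the shift is largely that of Tnfaip3. The share of other gene pairs without overlap was not counted. The exact two-sided permutation p was 0.0179, the smallest possible, and 0.0536 after Benjamini-Hochberg adjustment over the 3 pairs, which does not pass. A pair alone at that smallest p comes to 0.0536, so it could not have passed whatever its shift. Replicate 2 had the lowest of the 5 Sca1-MALT1 values, and without it the shift was 1.06. The exact permutation p was again the smallest possible, 0.0286. It came to 0.0429 after adjustment only because Zc3h12d minus Zc3h12a lost its overlapping array in the same run. Leaving out any other single array gave adjusted exact permutation p-values of 0.0714 to 0.171, none of which passes. In those runs, too, a pair alone at the smallest p, 0.0286 or 0.0476, could not pass. With the mean of each gene's probe sets the shift was 0.60, at the same adjusted p of 0.0536.

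Rbck1 encodes HOIL-1, a subunit of the ligase that builds linear ubiquitin chains. Its single probe set read 9.62 to 10.22 in Sca1-MALT1, with a median of 10.05, against 9.94, 9.94 and 9.89 in WT arrays. The Sca1-MALT1 arrays lay on both sides of the narrow WT range, 3 above and 2 below. The difference was 0.040 (SE 0.16, 95% interval -0.32 to 0.40, limma adjusted p = 0.956).

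Relb, a gene of the alternative NF-kB route, was higher in 4 of the 5 Sca1-MALT1 arrays than in any WT array. It encodes RelB, an NF-kB subunit that pairs with the product of Nfkb2. It read 8.67, 8.37, 8.52, 8.56 and 8.03 in Sca1-MALT1, against 7.64, 8.05 and 8.12 in WT arrays. Sca1-MALT1 replicate 5 lay between WT replicates 1 and 2. The difference was 0.49 or 1.41-fold (SE 0.18, 95% interval 0.086 to 0.90, limma adjusted p = 0.404, exact permutation p = 0.0714). Without WT replicate 1, the lowest array for Relb, the difference was 0.34 (limma adjusted p = 0.717).

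Map3k14 encodes NIK, the kinase that starts the alternative route, which in human cells is cleaved by the fusion of API2 with MALT1. Its brighter probe set, 1422999_at, read 6.96 to 7.37 in Sca1-MALT1, against 7.11, 7.28 and 7.47 in WT arrays. The groups overlapped, with a difference of -0.099 (SE 0.13, 95% interval -0.40 to 0.20, limma adjusted p = 0.844). The dimmer 1434364_at stood at 0.12, so the 2 probe sets of this gene disagreed in sign.

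**Figure D2:**
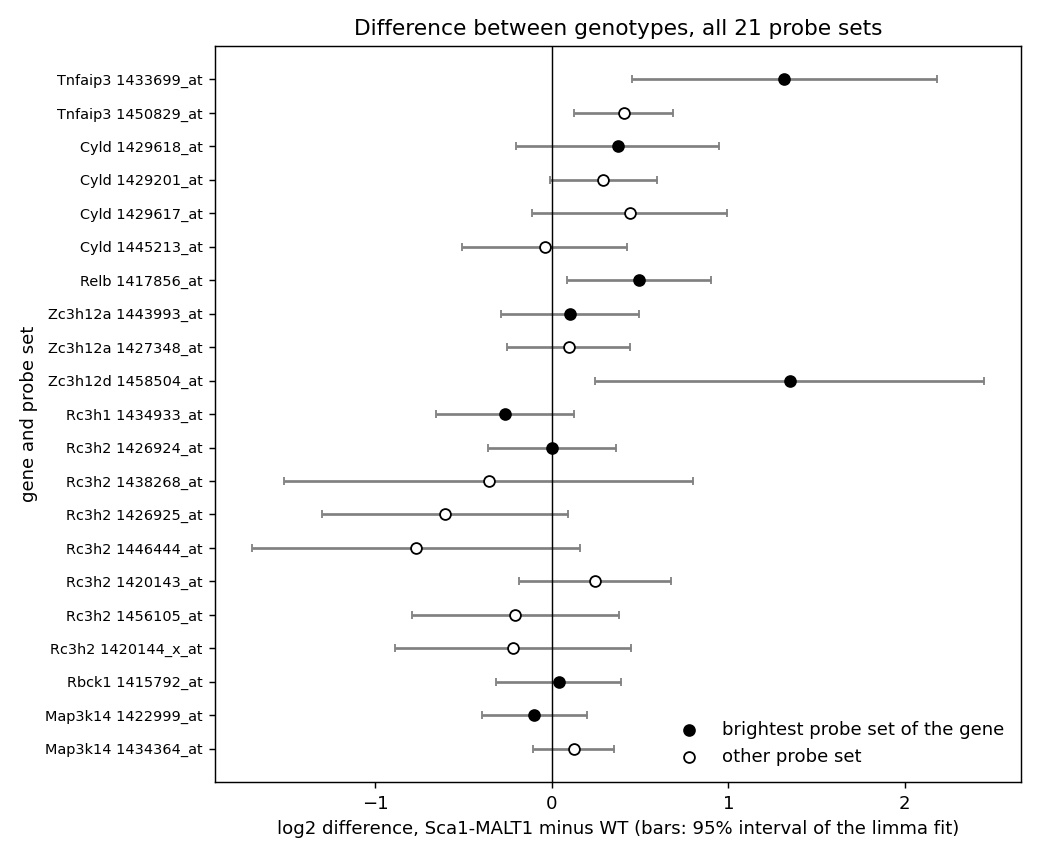
Log2 difference, Sca1-MALT1 minus WT, of all 21 probe sets with the 95% interval of the limma fit over all probe sets; filled points are the brightest probe set of a gene. The intervals of both Tnfaip3 probe sets, Relb and Zc3h12d lie above 0, and none of the 4 passed after adjustment.

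Among the RNA-destroying proteins, Zc3h12d had the largest difference and Zc3h12a, which encodes Regnase-1, one of the smallest. Regnase-1 is an endoribonuclease that cuts stem-loops in inflammatory transcripts, and the Zc3h12d protein shares its zinc finger and ribonuclease family. Zc3h12d read 8.75, 6.66, 7.62, 7.76 and 8.59 in Sca1-MALT1, against 6.22, 7.18 and 6.19 in WT arrays. Sca1-MALT1 replicate 2 lay below WT replicate 2, so the groups overlapped by that array, and the other 4 Sca1-MALT1 arrays were above all WT arrays. The mean was 7.88 ± 0.84 (SD, n = 5) in Sca1-MALT1 and 6.53 ± 0.56 (n = 3) in WT, a difference of 1.35 or 2.55-fold (SE 0.48, 95% interval 0.26 to 2.44, limma adjusted p = 0.391, exact permutation p = 0.0714). The WT mean lay close to the median probe set, 6.48, and RMA gives no call of signal against background.

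The 5 Sca1-MALT1 arrays had the same order for Zc3h12d and for the plasma cell markers. The mean signal of the 11 markers was 12.68, 11.11, 11.56, 11.73 and 11.95 in Sca1-MALT1 replicates 1 to 5, against 9.52, 9.38 and 9.60 in the WT arrays. Replicate 1 was highest and replicate 2 lowest in both measures, while WT replicate 2 was the highest WT array for Zc3h12d and the lowest for the markers. The part of plasma cells in the Zc3h12d difference was not tested.

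**Figure D3:**
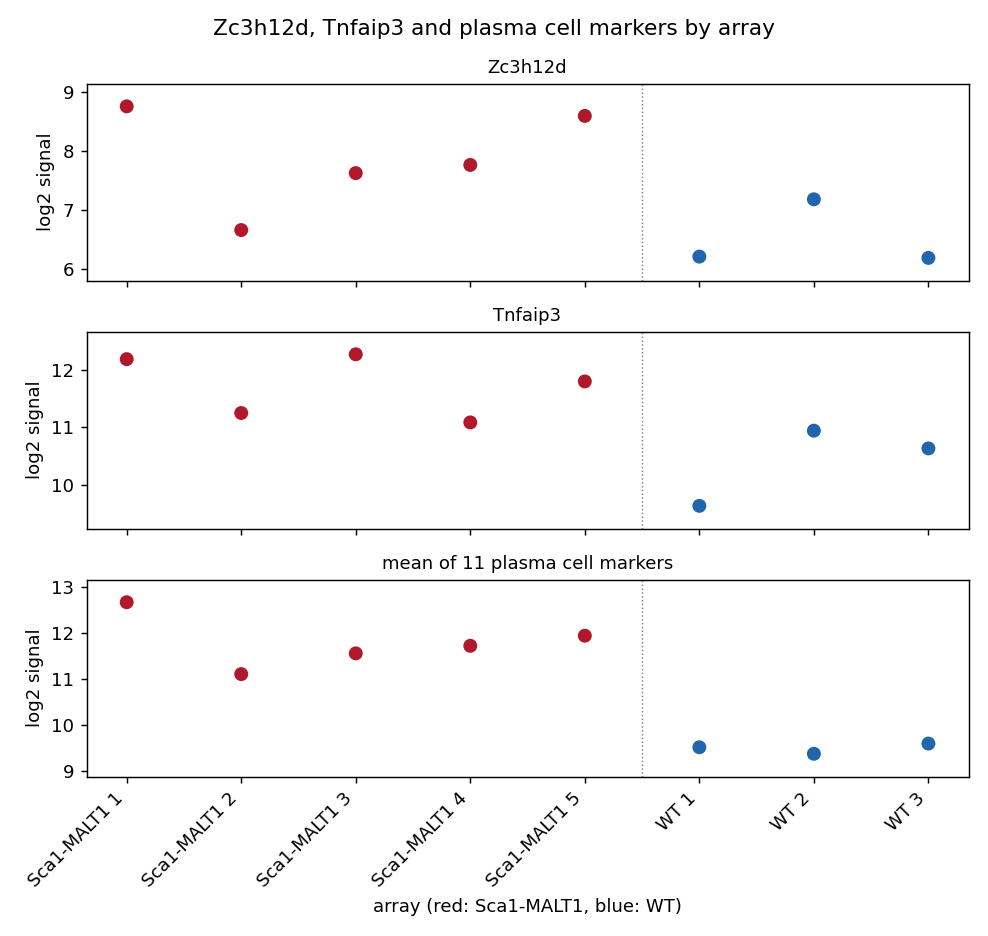
Log2 signal by array of Zc3h12d, Tnfaip3 and the mean of 11 plasma cell markers, with the 5 Sca1-MALT1 arrays (red) left of the 3 WT arrays (blue). Zc3h12d and the marker mean are highest in Sca1-MALT1 replicate 1 and lowest, within that genotype, in replicate 2, while Tnfaip3 is lowest in replicate 4.

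Likeness of profiles was measured as the root mean square difference between gene-centred log2 values over the 8 arrays, for the members with an SD of at least 0.5, which were Tnfaip3 and Zc3h12d. The 3 genes nearest to Zc3h12d were Kdelr3, a receptor that returns proteins to the endoplasmic reticulum, at 0.28, Mzb1, a chaperone of B and plasma cells, at 0.31, and Ssr4, a subunit of the translocon-associated complex, at 0.32. Genes near a member by this measure have a like difference between genotypes by the choice itself. The differences of these genes therefore add no support, at 1.498, 1.56 and 1.21, with limma adjusted p-values of 0.224 to 0.320. The nearest to Tnfaip3 were the Polycomb gene Cbx7 at 0.21, the zinc importer gene Slc39a4 at 0.25 and Arl2bp, whose product binds the small GTPase ARL2, at 0.28. Their differences, tied to that of Tnfaip3 by the same choice, were 1.17, 1.18 and 0.81, with limma adjusted p-values of 0.383 to 0.483. How near the closest genes would come to a member by chance was not tested.

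Both Zc3h12a probe sets stayed close to 0. The brighter, 1443993_at, read 6.62 to 7.17 in Sca1-MALT1, against 6.88, 6.46 and 6.86 in WT arrays, and differed by 0.10 (SE 0.17, 95% interval -0.29 to 0.49, limma adjusted p = 0.881). The other, 1427348_at, differed by 0.094. Within arrays, Zc3h12d minus Zc3h12a was 2.13, 0.048, 0.85, 0.76 and 1.42 in Sca1-MALT1, against -0.67, 0.72 and -0.67 in WT. The shift of 1.25 had an exact permutation p of 0.0893, or 0.134 adjusted over the 3 pairs. As for Zc3h12d alone, 4 of the 5 Sca1-MALT1 arrays were above all WT arrays. Replicate 2 was the single Sca1-MALT1 array that overlapped the WT arrays, and without it no overlap was left and the shift was 1.496. The exact permutation p was then 0.0286, the smallest for 4 against 3 arrays. It came to 0.0429 after adjustment because Tnfaip3 minus Cyld stood at the same smallest p. As the array left out was the overlapping one, this value adds no support. Leaving out any other single array gave adjusted exact permutation p-values of 0.0714 to 0.286, and the mean of probe sets gave 0.107, none of which passes.

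The Roquin genes differed little at their brightest probe sets. Rc3h1 and Rc3h2 encode RNA-binding proteins that recruit decay enzymes to stem-loops in transcripts such as those of Icos and Tnf. Rc3h1 read 10.51, 10.75, 10.76, 10.19 and 10.89 in Sca1-MALT1, against 10.71, 10.94 and 11.003 in WT arrays. Sca1-MALT1 replicates 1 and 4 were below all WT arrays, and the difference was -0.27 (SE 0.17, 95% interval -0.66 to 0.13, limma adjusted p = 0.655). Rc3h2 differed by 0.0015 at its brightest probe set, 1426924_at (SE 0.16, 95% interval -0.36 to 0.37, limma adjusted p = 0.999). Within arrays, Rc3h1 minus Rc3h2 averaged 0.80 ± 0.21 in Sca1-MALT1 (n = 5) and 1.07 ± 0.20 in WT (n = 3), with an exact permutation p of 0.143 before and after adjustment over the 3 pairs.

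The 7 probe sets of Rc3h2 did not give one picture. Their differences ran from -0.77 for 1446444_at to 0.25 for 1420143_at. Both of these, with 1456105_at and 1420144_x_at, were dimmer than the median probe set. Of the 7, 5 had their lowest value of all 8 arrays in Sca1-MALT1 replicate 5. The brightest, 1426924_at, read 9.90 in replicate 5, inside the WT range of 9.43 to 10.13. In 1438268_at that array read 5.33 and replicate 4 read 6.01, against 7.09 to 7.48 in the other three Sca1-MALT1 arrays and 6.69 to 7.28 in WT arrays. Replicate 5 also had the largest 3′ minus 5′ difference of control probe sets, 2.49 for beta-actin against 1.25 to 1.53 in the other four Sca1-MALT1 arrays and 1.45 to 2.14 in WT arrays. For Gapdh it was 3.20 in replicate 5, against 2.25 to 2.75 in the other four and 2.70 to 2.92 in WT arrays. The part of RNA quality in the spread of Rc3h2 was not tested.

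**Figure D4:**
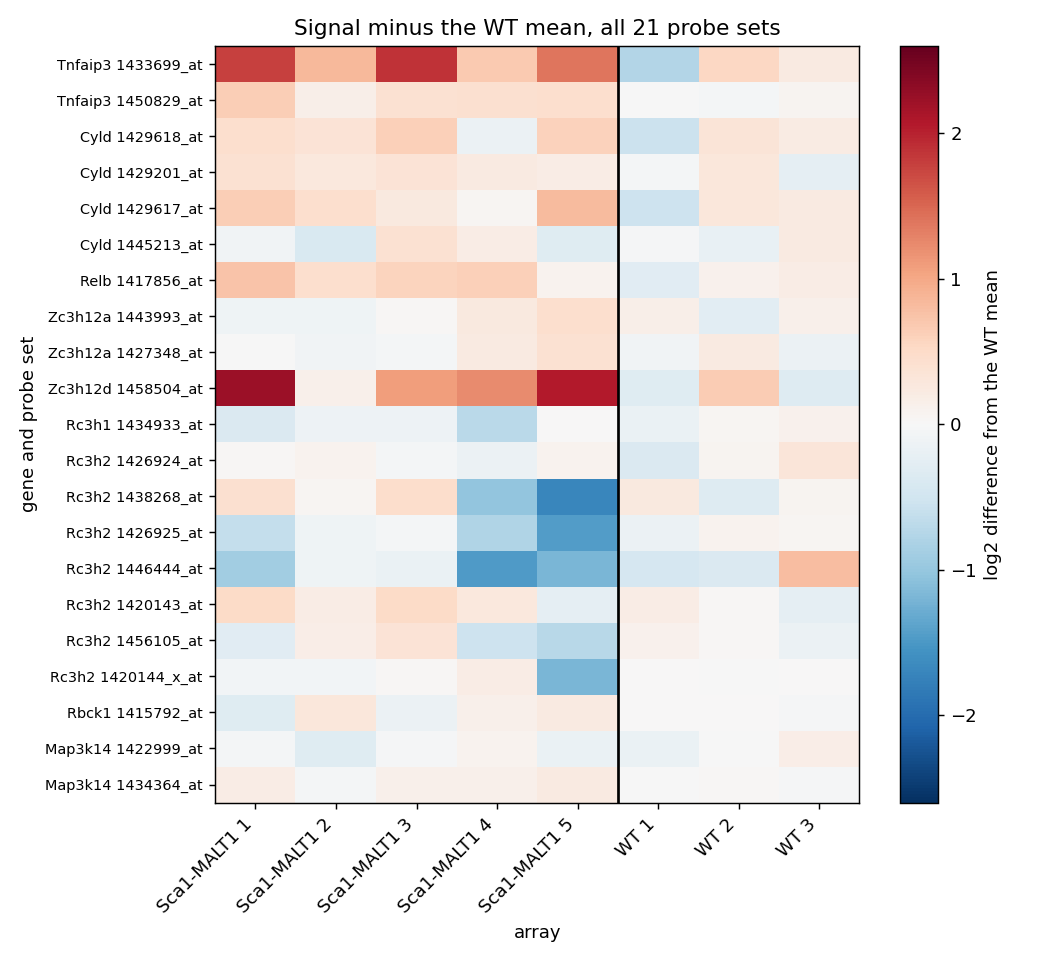
Log2 signal minus the WT mean of each of the 21 probe sets (rows) in each array (columns), Sca1-MALT1 left of WT; red is above and blue below the WT mean. The first Tnfaip3 row and the Zc3h12d row are the reddest in Sca1-MALT1, and several Rc3h2 rows are blue in Sca1-MALT1 replicates 4 and 5.

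Of the 61 measured genes on 7 lists of the pathway around these substrates, 0 passed in limma's fit, where 0.0879% of all genes did, and 6 had an unadjusted p under 0.05, a share near the 10.2% of all genes. The difference was positive in 38 and negative in 23, with a median of 0.13, beside 50.7% positive of all genes. WT replicate 1 had the lowest mean signal of the 8 arrays in 6 of the 7 lists and over the 9 members. Of the WT arrays it had the largest beta-actin 3′ minus 5′ difference, 2.14, but the smallest for Gapdh, 2.70 against 2.80 and 2.92. Without it 32 of the 61 were positive and 29 negative (52.5% positive), with a median of 0.033, beside 49.5% positive of all genes. The lists' medians without it were -0.22 to 0.092, and that around NIK stood at -0.048 with 3 of 8 positive. The part of RNA quality was not tested. In the list of the BCL10-MALT1 complex and its relay to the kinases, 10 of 13 measured genes were positive, with a median of 0.14. Malt1 itself stood at 0.49 (limma adjusted p = 0.507), the kinase gene Prkcq at 0.49 and the adaptor gene Tab3 at 0.39. Other reported MALT1 substrates share 3 of their 7 genes with that list (Malt1, Bcl10 and Tab3), and the median of both lists is the value of Bcl10. Of the 7, 4 were positive, with the NF-kB adaptor gene Tank at 0.29. Among partners of the linear ubiquitin ligase and of A20 and CYLD, 7 of 9 were positive with a median of 0.15. There the A20-binding partner gene Tnip2 stood at 0.41 (limma adjusted p = 0.451), Spata2, which ties CYLD to the ligase, at 0.29, and Tax1bp1, an A20 cofactor gene, at 0.22.

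The NF-kB subunits and inhibitors had a median of 0.16, with 7 of 9 positive. Rela, the main activating subunit gene, stood at 0.44 (SE 0.14, limma adjusted p = 0.364) and read 11.11 to 11.65 in Sca1-MALT1, against 10.75 to 11.01 in WT arrays. Rela and Spata2 were the 2 of the 61 genes whose groups did not overlap, both higher in Sca1-MALT1, where 4.27% of all genes were so. The IkB family genes Nfkbib and Nfkbiz stood at 0.44 and 0.80. In the alternative route around NIK, 5 of 8 were positive with a median of 0.16, and the B cell receptors of that route stood lowest, Cd40 at -0.91 (limma adjusted p = 0.409) and Tnfrsf13c at -0.61, while the ligase gene Birc2 stood at 0.43. B cell markers were lower beside them, and their part was not tested.

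Transcripts that Regnase-1 or Roquin destabilise were split, 8 positive and 8 negative of 16, with a median of 0.031. Of the 16, 11 had a mean above the median probe set, 6.48, in Sca1-MALT1 and 11 in WT. The signs of the dim ones, such as Il6, Il12b, Il2 and Ptgs2, carry little. Ctla4, an inhibitory receptor gene of T cells, stood at 1.55 (SE 0.52, limma adjusted p = 0.381) with a WT mean of 6.39, below that median. The ligand gene Cd274 stood at 0.61. T cell markers were higher in 4 of the 5 Sca1-MALT1 arrays than in all WT arrays, and their part in the Ctla4 value was not tested. Of the paralogues and partners of Regnase and Roquin, 5 of 7 were negative with a median of -0.10. Mex3b, an RNA-binding ubiquitin ligase gene, stood at -1.33 (limma adjusted p = 0.407), the Regnase paralogue Zc3h12c at -0.40 and Mex3c at -0.28. Zc3h12c was dimmer than the median probe set in both groups, and Mex3b was so in Sca1-MALT1.

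**Figure D5:**
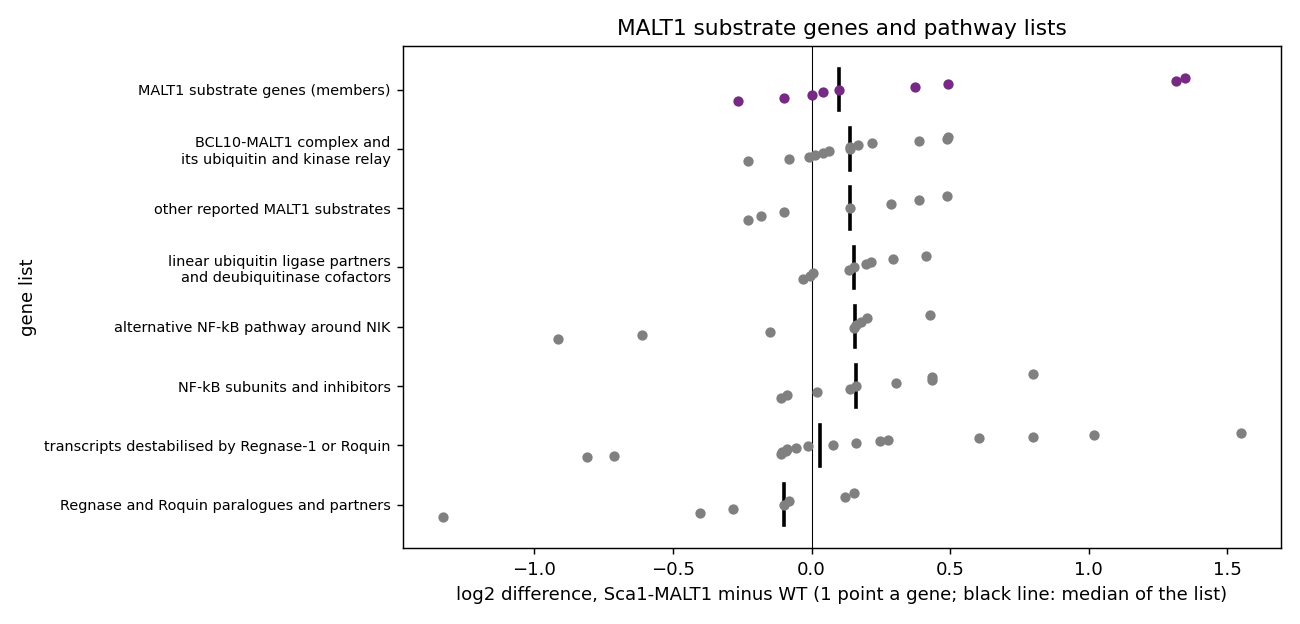
Log2 difference, Sca1-MALT1 minus WT, of each measured gene (points) in the 9 substrate genes (purple, top) and the 7 pathway lists (grey); black lines are list medians. The medians lie between -0.10 and 0.16, and Tnfaip3 and Zc3h12d are the 2 purple points past 1.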

How the data were processed

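The deposited log2 signals, 1 for each probe set on each array, were computed by the authors with RMA, per the submitters' processing notes. RMA corrects background, normalizes by quantiles and summarises probes. Deposited values lay between 2.73 and 15.41 and array medians between 6.40 and 6.48, from which the log2 scale was read. The version and the software were not given in the sources used here. Values were used as deposited, with no filter and no detection call.

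Of 45101 probe sets, 64 controls were left out. In the platform annotation 34945 had 1 gene symbol, 932 several and 9160 none listed. Entrez identifiers were used to bring symbols up to date from a RefSeq table of GRCm38.p6. The brightest probe set stood for each gene. Of 70 listed pathway genes 61 had one, and the others were not analysed here.

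The genotypes were compared with limma 3.58.1 (lmFit, eBayes) in R 4.3.3, once over 18193 genes and once over 45037 probe sets, with Benjamini-Hochberg adjustment over each and a two-sided threshold of 0.05. The fit was tested on simulated data. For the brightest probe set of a member, the SE, interval and adjusted p are those of the fit over genes, and for other probe sets those of the fit over probe sets. An exact two-sided permutation test served for single values. The number of arrays limits the precision. No 2 arrays were identical (r from 0.949 to 0.981 over all probe sets). The labels do not say that replicate numbers pair the arrays, and the main fit used no pairing. The correlation of deviations from group means was -0.22, -0.038 and 0.0060 for numbers 1, 2 and 3. These values cannot exclude a shared day or litter, since differences in cell content between arrays also enter them. Named genes were the 9 members with all their probe sets, up to 3 genes per pathway list with the lowest p, and the 3 genes nearest to each member with an SD of at least 0.5. Jchain, named among the plasma cell markers, was chosen after its values were seen. The members, from which the 3 pairs were made, and the lists were chosen with earlier results of these data known. Alternatives were other normalizations, averaging a gene's probe sets, a filter on dim ones, other variance models, array weights, a replicate block, another threshold and leaving out each array.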

Additional observations from a re-analysis of the deposited data

Results flagged for a closer look

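In the 5 Sca1-MALT1 arrays, 1 of the 21 probe sets held a value far from the others. Rc3h2 probe set 1420144_x_at read 4.44 in Sca1-MALT1 replicate 5, and the next lowest of the 5 was 5.55, a gap of 0.809 of the whole range, against a limit of 0.71 for 5 arrays. Chance passes this limit in about 1 of 20 groups. This probe set was dimmer than the median probe set. The groups of 3 WT arrays were not checked in this way.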

How the results depend on the processing

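No member gene, member probe set or pathway gene passed the threshold under any alternative run, including the adjusted threshold of 0.1. Tnfaip3, Cyld, Relb, Zc3h12d and Rc3h1 kept their sign under all 15 alternatives each, Tnfaip3 between 0.86 (mean of probe sets) and 1.59 and Zc3h12d between 1.07 (array quality weights) and 1.67, with limma adjusted p-values of 0.194 to 0.608 and 0.196 to 0.686. The other four genes changed sign in 13 of their fits. With the mean of probe sets, Rc3h2 stood at -0.27 and Map3k14 at 0.013, and with array quality weights Rc3h2 stood at -0.020 and Rbck1 at -0.0026. With the replicate block, which rests on the replicate numbers that both genotypes share, Zc3h12a stood at -0.066 and Rbck1 at -0.055. Leaving out 1 array gave -0.035 to 0.17 for Zc3h12a, -0.19 to 0.16 for Rc3h2 and -0.023 to 0.13 for Rbck1. The cause was not tested.

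Of all genes, 16 passed, with 38 at a threshold of 0.1, 28 with array quality weights and 0 with the replicate block. With the block 2034 genes had an unadjusted p under 0.05 in limma's fit, 2 of the 9 members among them. Sca1-MALT1 replicates 4 and 5 have no WT array of their number, so in the block they add nothing to the difference and its fit rests on fewer arrays. The block also gave shifts of 1.03 for Tnfaip3 minus Cyld and 1.21 for Zc3h12d minus Zc3h12a, and no WT array's deviations correlated best with the Sca1-MALT1 array of its own number. Leaving out 1 array gave 8 to 38 genes, 10 when Sca1-MALT1 replicate 1 was left out, 38 for replicate 2, 8 for replicate 3 and 9 for replicate 5. It gave 0 to 2 members with an exact permutation p under 0.05 (3.78% to 8.06% of all genes), against Tnfaip3 alone in all arrays (6.87%): 0 without WT replicate 1 or Sca1-MALT1 replicate 1, and 2 without Sca1-MALT1 replicate 4. With 2 WT arrays the smallest p is 0.0476. Leaving out 1 array gave 0.98 to 1.71 for Zc3h12d minus Zc3h12a and 0.83 to 1.06 for Tnfaip3 minus Cyld. Both of these pairs passed only without Sca1-MALT1 replicate 2, the array that alone overlapped in the first pair. There both stood at the smallest p that 4 against 3 arrays allow, 0.0286. With the mean of probe sets Rc3h1 minus Rc3h2 was 0.0084, against -0.27, and Tnfaip3 minus Cyld 0.596, against 0.94. The largest shift of the median of all genes was 0.020. RMA gives no detection call, so low values could not be judged against background.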

Other observations

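Of the 3 probe sets of Malt1 itself, 1445068_at and 1456429_at were both highest in Sca1-MALT1 replicate 3 and lowest in replicate 5, while 1456126_at was highest in replicate 1 and lowest in WT replicate 1. The brightest over all arrays, 1456126_at, read 10.18, 10.001, 9.92, 9.65 and 9.39 in Sca1-MALT1 replicates 1 to 5, against 9.02, 9.24 and 9.75 in WT arrays. In 1445068_at the Sca1-MALT1 arrays read 7.49, 8.44, 8.66, 8.26 and 5.38, against 7.23, 7.47 and 7.73 in WT arrays, and in 1456429_at they read 9.62, 10.41, 10.56, 9.56 and 8.44, against 8.89, 9.67 and 9.87. Sca1-MALT1 replicate 5 had the lowest of all 8 arrays in 1445068_at and 1456429_at, as it had in 5 of the 7 Rc3h2 probe sets. These probe sets target mouse Malt1, and whether they also detect the transgene is not given in the sources used here.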
